A study of Homo sapiens with 12 samples.

Results

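The genes described are 51 of the 19517 in the deposited table and make up the adhesion machinery of the cell surface: 18 integrin α subunits, 8 integrin β subunits, 12 laminin chains and 13 genes of focal adhesions. Integrins and laminins were taken by their symbols. The focal adhesion genes were PTK2, SRC, PXN, VCL, TLN1, TLN2, ZYX, ILK, PARVA, FERMT1, FERMT2, BCAR1 and CAV1. Of the 51, 46 had enough reads to be tested among 14133 genes. The other 5 had few reads over all 12 libraries together, with 0 for ITGA8, 3 for ITGA4, 3 for ITGAD, 25 for ITGAL and 45 for LAMB4.

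HCC1937 and MDA-MB-231 are established human breast cancer cell lines. Their poly-A RNA was sequenced after 72 h with or without an aqueous extract of the succulent plant Kalanchoe pinnata, in work on cell migration. The 4 groups of 3 libraries were HCC1937 with 66 µg/mL of extract (E31 to E33), HCC1937 controls (E25 to E27), MDA-MB-231 with 140 µg/mL of extract (E7 to E9) and MDA-MB-231 controls (E1 to E3). All cells are labelled wild type and grew with 10% fetal bovine serum and antibiotics, HCC1937 in RPMI 1640 and MDA-MB-231 in DMEM. Line and medium therefore cannot be told apart wherever the lines are compared. Where extract effects are compared between the lines, extract concentration cannot be told apart from them either. The labels do not say whether the 3 libraries of a group came from separate cultures, so p-values describe only how far these libraries scatter, which can be technical scatter.

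Integrins are receptors of an α and a β subunit that bind the extracellular matrix outside the cell and the actin or keratin cytoskeleton inside it. Laminins are trimers of an α, a β and a γ chain and form the sheet of basement membranes on which mammary epithelium rests. LAMA3 and LAMB3 are chains of the laminin of hemidesmosomes, the anchoring junctions in which ITGA6 pairs with ITGB4. At focal adhesions, talins (TLN1, TLN2) and kindlins (FERMT1, FERMT2) activate integrins, the kinases PTK2 (FAK) and SRC signal through the scaffolds PXN and BCAR1, and VCL, ZYX, ILK and PARVA link the complex to actin.

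Upstream sequences were looked up for the members in RefSeq (GRCh38.p14), where 35 of the 51 had an entry, with 49 windows of the 250 bases before a transcript start. The motif searched was TGANTCA, which reads the same on both strands and is the textbook binding sequence of the AP-1 transcription factors. It lay in the windows of BCAR1, LAMA3 and LAMB3, that is 3 of the 35 member genes (8.57%), where 8.06% of the 27305 genes in the table held it. This share was near that of all genes. These 3 are shown because they moved in different ways with extract, and ITGA1 is shown as the member with the largest fall in MDA-MB-231, with no match. Each is written 5′ to 3′ on the strand of its gene, with the motif in capitals and without bases that an exon of GENCODE 29 covers, except for LAMA3, where only the match and 10 bases on each side are given.
LAMB3, chr1:209651395-209651624, minus strand: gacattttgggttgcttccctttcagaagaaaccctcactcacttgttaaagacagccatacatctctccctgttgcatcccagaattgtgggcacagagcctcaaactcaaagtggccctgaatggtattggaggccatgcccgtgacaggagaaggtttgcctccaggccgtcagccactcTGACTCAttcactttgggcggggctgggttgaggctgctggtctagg
BCAR1, chr16:75268054-75268257, minus strand: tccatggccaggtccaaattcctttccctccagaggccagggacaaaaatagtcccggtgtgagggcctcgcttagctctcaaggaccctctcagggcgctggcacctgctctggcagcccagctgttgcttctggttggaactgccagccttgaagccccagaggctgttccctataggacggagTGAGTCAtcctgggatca
LAMA3, chr18:23872885-23872911, plus strand: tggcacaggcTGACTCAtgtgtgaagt
LAMA3, chr18:23872941-23872967, plus strand: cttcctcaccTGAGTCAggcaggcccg
ITGA1, chr5:52787666-52787895, plus strand: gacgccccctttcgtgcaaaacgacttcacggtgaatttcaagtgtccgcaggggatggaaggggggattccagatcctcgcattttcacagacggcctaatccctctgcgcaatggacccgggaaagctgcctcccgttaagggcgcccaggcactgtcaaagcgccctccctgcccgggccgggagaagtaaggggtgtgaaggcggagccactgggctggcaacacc
Counted from the transcript start, the match began at position -67 in LAMB3, at -64 in BCAR1, and at -125 and -69 in LAMA3. LAMB3 has 3 annotated starts in the table. Only the shown window, which belongs to a start inside the gene, held a match. BCAR1 has several starts in the table, and only the shown window held a match. The LAMA3 window also belongs to a start inside its gene, which begins at chr18:23689453. A match of letters is a description and not a measured binding site. The other motif searched, GGGCGG or its complement CCGCCC, lay in the windows of 62.9% of the 35 member genes and of 46.2% of all genes in the table.

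Libraries held 16170545 to 31337431 counts. Library E7 stood apart from the other MDA-MB-231 extract libraries. Its rank correlation across genes was 0.9667 with E8 and 0.9658 with E9, and all other replicate pairs were at 0.9968 or above. Mitochondrially encoded genes took 10.7% of its counts, against 4.63% in E8 and 4.78% in E9. MDA-MB-231 controls had 2.76% to 2.87%, and HCC1937 had 3.78% to 3.98% with extract and 3.53% to 3.69% in controls, so in both lines this share was higher in every extract library than in every control. Its part in the results was not tested. The 51 members together had 4380 CPM (the count scaled by the library's TMM-adjusted total) in E7, against 6820 in E8 and 6760 in E9. Values of MDA-MB-231 without E7 are therefore also given. Fitted by group, edgeR's coefficient of variation between replicates was 0.296 in MDA-MB-231 with extract and 0.044 in its controls. It was 0.0449 in HCC1937 with extract and 0.0409 in HCC1937 controls. Through the shared estimate of spread, standard errors and calls in HCC1937 also carry the scatter of E7. Lineage markers mostly went with the line labels. All 8 epithelial markers were higher in HCC1937 controls than in MDA-MB-231 controls, and CDH1 had 0 reads in MDA-MB-231. Of the 4 tested mesenchymal markers, 3 were lower in HCC1937 controls and 1 was higher. The mesenchymal marker VIM averaged 13.9 CPM in HCC1937 controls and 3740 CPM in MDA-MB-231 controls. Of other cell types, the 6 leukocyte markers summed to 181 to 184 CPM in HCC1937 with extract, against 64.6 to 67.1 CPM in controls, and to 426 to 527 CPM in MDA-MB-231 with extract, against 303 to 318 CPM in controls. Nearly all of this was CD68, a lysosomal protein abundant in macrophages, which rose in both lines, while PTPRC, which defines leukocytes, had at most 27 reads over any group. The 5 fibroblast markers summed to 6.64 to 8.19 CPM in HCC1937 with extract, against 29.3 to 31.5 CPM in controls, and to 4.7 to 9.39 CPM in MDA-MB-231 with extract, against 22.4 to 26.5 CPM in controls, with DCN at 0 in all groups. The 4 platelet markers summed to at most 2.83 CPM and the 4 endothelial markers to at most 24.6 CPM in any library. The part of these markers in the results was not tested.

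With extract, 14 members fell in both lines, 30.4% of those tested, beside 25.3% of all genes. They included 6 α subunits (ITGA1, ITGA2, ITGA6, ITGA7, ITGAV and ITGAX) and 4 laminin chains (LAMA4, LAMA5, LAMB1 and LAMB2). The 5 that rose in both (10.9%, beside 24.3% of all genes) were all focal adhesion genes. Another 3 members, ITGB3 and ITGB4 among them, rose in HCC1937 and fell in MDA-MB-231 (6.52%, beside 1.58% of all genes). In HCC1937, 16 of the 46 tested members rose, where 32.7% of all genes rose, 22 fell, where 39.1% of all genes fell, and 8 did not pass. In MDA-MB-231, 7 rose, where 33% of all genes rose, 21 fell, where 32.8% of all genes fell, and 18 did not pass. Without E7, 13 rose there, where 37.3% of all genes did, and 23 fell, where 37.2% did. In either direction 71.8% of all genes were called in HCC1937 and 65.8% in MDA-MB-231. The share that rose in HCC1937 was near that of all genes. The median log2 fold change of the members was -0.59 in HCC1937, beside -0.16 over all genes tested, and -0.47 in MDA-MB-231, beside 0.00. Called means an adjusted p under 0.05 in edgeR's quasi-likelihood test, adjusted over all genes tested. Log2 fold changes are extract over control and carry their standard error. In bulk RNA, fewer cells of a kind and less RNA per cell cannot be told apart.

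GC content moved with these results. Over the 46 members tested, the rank correlation of the log2 fold change with GC content was 0.39 in HCC1937 and 0.30 in MDA-MB-231, and with transcript length it was -0.09 and -0.23, where all points share the same libraries. Among the members, those that rose in HCC1937 had a median GC content of 56.5% and those that fell 47.7%, and in MDA-MB-231 the medians were 57.7% and 49.5%. A second fit therefore carried an offset for transcript length and GC content in each library. With it, 15 of the 16 rises and 18 of the 22 falls in HCC1937 kept their call, 3 calls ended (ITGA6, ITGAE and ITGB1) and 2 turned (ITGA1 and ITGA2). In MDA-MB-231 all 7 rises and 19 of the 21 falls kept theirs, and those of FERMT2 and ITGB8 ended. The median of the members in HCC1937 was -0.04 with the offset, beside -0.00 over all genes. There 18 members rose, where 34.8% of all genes did, and 19 fell, where 32.8% did. In MDA-MB-231 the median with the offset was -0.34, beside 0.01 over all genes. Where a fold is printed below, its value with the offset is also given if the offset ended or turned its call or moved it by more than 1.5 times. How far length and GC content account for the changes was not tested beyond this fit.

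**Figure D1:**
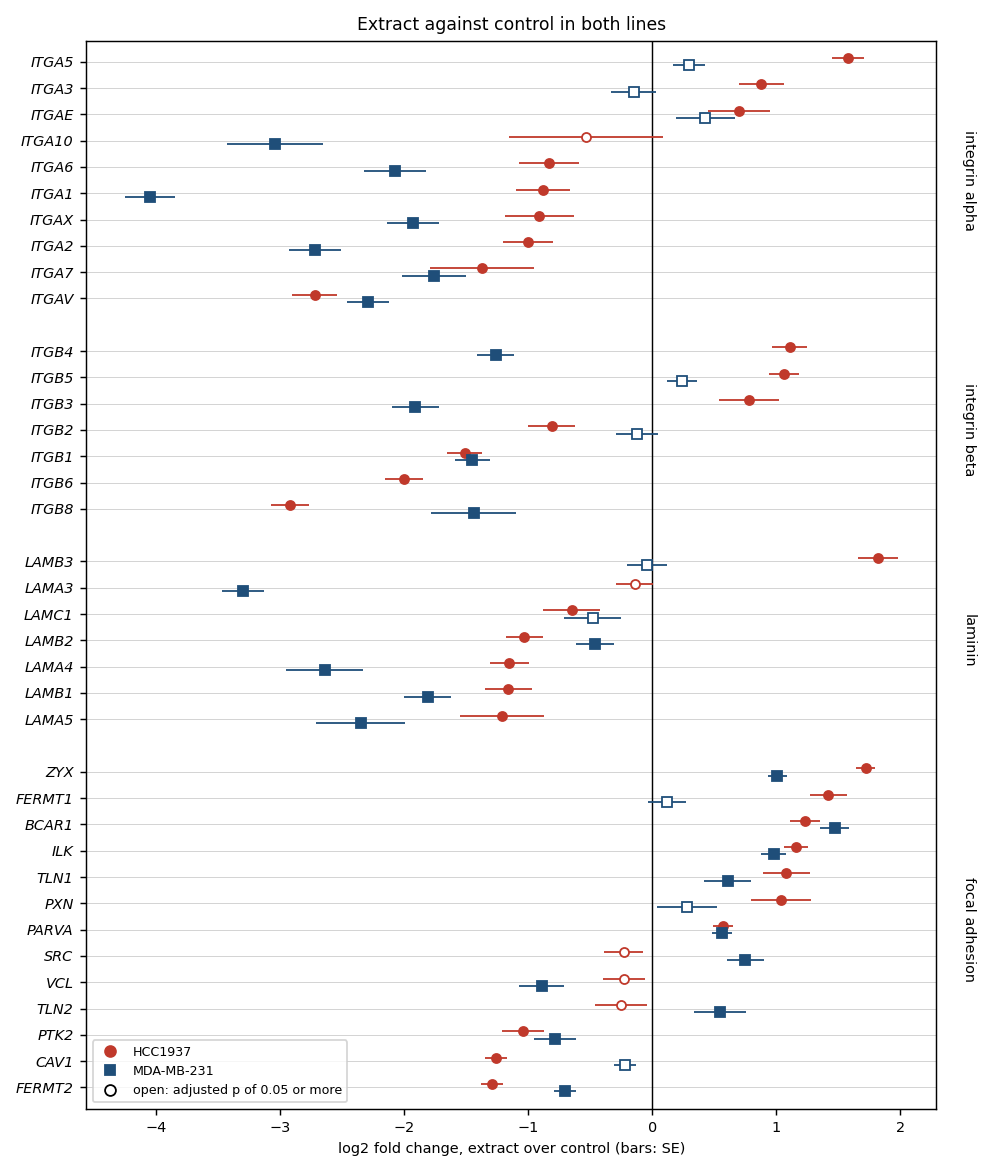
Log2 fold change of extract over control (x axis, bars: standard error) for 37 members with a mean of at least 5 CPM in some group (y axis, by family), with HCC1937 as circles and MDA-MB-231 as squares. Open symbols did not pass; a line with 3 or fewer reads in a group has no symbol. ITGB4 and ITGB3 lie right of 0 in HCC1937 and left of 0 in MDA-MB-231, and ZYX, BCAR1, ILK, TLN1 and PARVA lie right of 0 in both.

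The β subunits, which set much of what an integrin connects to, moved in both directions in HCC1937. There ITGB3, ITGB4 and ITGB5 rose, while ITGB1, ITGB2, ITGB6, ITGB7 and ITGB8 fell. In MDA-MB-231 none of the 8 rose, ITGB1, ITGB3, ITGB4 and ITGB8 fell and 4 did not pass. Without E7, 1 rose there (ITGB5) and 4 fell. The median was -1.12 in HCC1937 and -1.35 in MDA-MB-231. With the offset it was -0.38 in HCC1937, where 3 rose and 4 fell, and -0.56 in MDA-MB-231, where 0 rose and 4 fell. Over all genes and without the offset, 32.7% rose and 39.1% fell in HCC1937, and 33% rose and 32.8% fell in MDA-MB-231. With it these shares were 34.8% and 32.8%, and 34.9% and 30.4%.

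ITGB1 (chr10:32900318-32958230 on GRCh38), the common partner of most α subunits, had 271, 285 and 266 CPM in the HCC1937 extract libraries, against 750, 788 and 807 CPM in HCC1937 controls. The MDA-MB-231 extract libraries had 265 (E7), 403 and 413 CPM, against 970, 987 and 1000 CPM in controls. Extract and control libraries did not overlap in either line. The log2 fold change was -1.51 ± 0.14 in HCC1937 (adjusted p = 1.54e-06) and -1.45 ± 0.14 in MDA-MB-231 (adjusted p = 2.92e-06), or -1.27 without E7. With the offset it was -0.20 in HCC1937, which ended the call (adjusted p = 0.177), and -0.61 in MDA-MB-231, still called. The difference between the lines was -0.06 ± 0.20 (adjusted p = 0.864), and its sign changed with the scaling, as did its call without E7 (-0.22, adjusted p = 0.000237, or 0.23 with the offset as well, adjusted p = 1.31e-06).

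ITGB4 (chr17:75721459-75757818), the hemidesmosome subunit that reaches keratin filaments, went opposite ways in the lines. It had 664, 651 and 677 CPM in HCC1937 with extract, against 317, 307 and 296 CPM in HCC1937 controls. MDA-MB-231 cells had 14.9 (E7), 25.2 and 17.6 CPM with extract, against 46.1, 45.6 and 47.3 CPM in controls. All extract libraries were above the controls in HCC1937 and below them in MDA-MB-231. ITGB4 thus rose by 1.11 ± 0.14 in HCC1937 (adjusted p = 2.33e-05) and was at -1.26 ± 0.15 in MDA-MB-231 (adjusted p = 1.5e-05; -1.09 without E7), and these effects differed by 2.37 ± 0.21 (adjusted p = 1.12e-05).

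ITGB3, the partner of ITGAV and of the platelet subunit ITGA2B, also split the lines, at low levels in HCC1937. It had 2.55, 2.64 and 2.68 CPM in HCC1937 with extract, against 1.34, 1.42 and 1.83 CPM in controls (log2 fold change 0.78 ± 0.24, adjusted p = 0.0128). In MDA-MB-231 the extract libraries had 8.46 (E7), 15.3 and 15.4 CPM, against 45.8, 50.4 and 52.7 CPM in controls (-1.91 ± 0.19, adjusted p = 2.94e-06; -1.69 without E7). The groups did not overlap in either line. The 2 effects differed by 2.69 ± 0.30 (adjusted p = 6.56e-05).

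ITGB8 and ITGB6, which pair with ITGAV and are known for activating latent TGF-β, were at or below about 1 CPM in MDA-MB-231. ITGB8 (chr7:20329766-20415754) had 6.92, 6.43 and 6.71 CPM in HCC1937 with extract, against 47.4, 52.7 and 51.3 CPM in controls, a log2 fold change of -2.92 ± 0.15 (adjusted p = 1.29e-08; -0.85 with the offset, still called). In MDA-MB-231 it had 0.179 to 0.422 CPM with extract, against 0.565 to 1.08 CPM in controls (-1.44 ± 0.34, adjusted p = 0.00252; -1.33 without E7). That call ended with the offset, where the value was 0.41 (adjusted p = 0.366). The lines differed by -1.47 ± 0.41 (adjusted p = 0.0166), a call that ended without E8 (-0.89, adjusted p = 0.301). ITGB6 had 7.69, 8.88 and 9.09 CPM in HCC1937 with extract, against 33, 36.6 and 33.1 CPM in controls (-2.00 ± 0.15, adjusted p = 1.99e-07; -0.56 with the offset, still called). It had 1 read over the MDA-MB-231 extract libraries and 1 over the MDA-MB-231 controls, so no fold is given there.

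ITGB5, a further partner of ITGAV, had 376, 368 and 379 CPM in HCC1937 with extract, against 183, 179 and 175 CPM in controls (1.06 ± 0.12, adjusted p = 7.54e-06). The MDA-MB-231 extract libraries had 53 (E7), 75.1 and 76.3 CPM, against 54.2, 57.7 and 60.9 CPM in controls, where the groups overlapped (0.24 ± 0.12, adjusted p = 0.0956). Without E7 that value was 0.40 and passed (adjusted p = 2.42e-08). The leukocyte subunits ITGB2 and ITGB7 fell in HCC1937 at means of at most 4.86 CPM in any group of that line.

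Per kilobase of transcript, the order of the β transcripts in HCC1937 was not the same with and without extract. ITGB1 made up 26.4 ± 1.01% of the summed β level in HCC1937 with extract and 65.6 ± 1.32% in HCC1937 controls (SD, n = 3 each). ITGB4 made up 40.9 ± 0.692% and 16.5 ± 0.846%, and ITGB5 31.2 ± 0.416% and 13.0 ± 0.516%, in the same order. The extract libraries thus had ITGB4 as their most abundant β transcript, ahead of ITGB5 and ITGB1, with no overlap between neighbours in that order, and the controls had ITGB1. The summed level itself was 275 ± 0.952 CPM per kb with extract and 315 ± 5.63 CPM per kb in controls. In MDA-MB-231, ITGB1 remained first in both groups, at 79 ± 1.07% with extract and 87.6 ± 0.429% in controls, while the summed level was 120 ± 26.4 and 297 ± 5.99 CPM per kb. These and all other levels and shares per kb carry no offset for length and GC content.

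**Figure D2:**
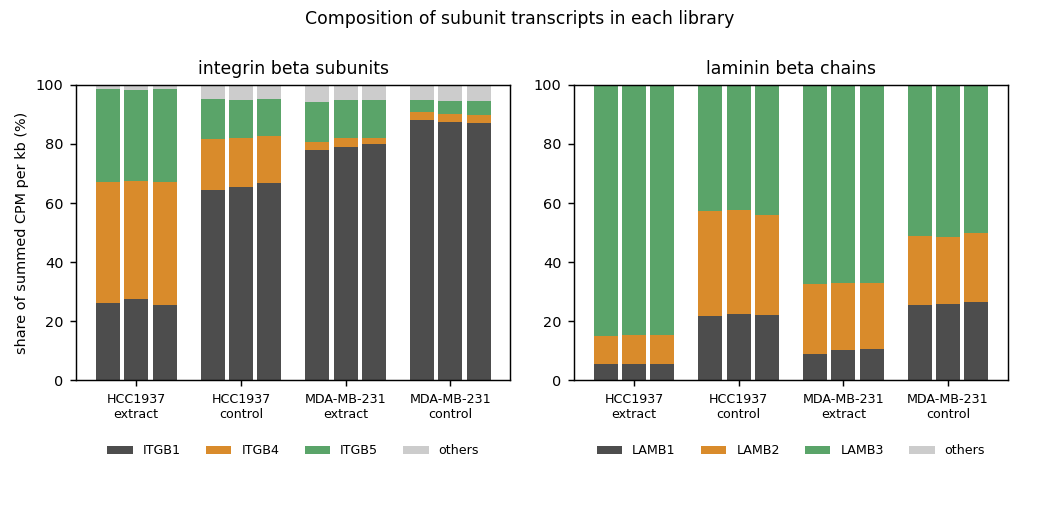
Share (y axis, percent of summed CPM per kb) of each transcript among integrin β subunits and laminin β chains, 1 bar per library. In HCC1937 with extract ITGB4 and ITGB5 exceed ITGB1, and LAMB3 averages 84.9%, above the 42.8% of HCC1937 controls.

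Among the 14 tested α subunits, 9 fell in HCC1937, 3 rose (ITGA3, ITGA5 and ITGAE) and 2 did not pass. In MDA-MB-231, 8 fell, 0 rose and 6 did not pass. The median was -0.96 in HCC1937 and -1.84 in MDA-MB-231. With the offset it was -0.76 in HCC1937, where 4 rose and 6 fell, and -1.30 in MDA-MB-231, where 0 rose and 9 fell. Without E7, 2 rose there (ITGA3 and ITGA5), 8 fell and the median was -1.79. Over all genes, 32.7% rose and 39.1% fell in HCC1937, and 33% rose and 32.8% fell in MDA-MB-231. With the offset these shares were 34.8% and 32.8% in HCC1937, and 34.9% and 30.4% in MDA-MB-231. They were 37.3% and 37.2% in MDA-MB-231 without E7.

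ITGAV (chr2:186590056-186680901), the vitronectin receptor subunit, was among the deepest falls in both lines. It had 21.5, 21.1 and 20.8 CPM in HCC1937 with extract, against 130, 143 and 146 CPM in controls (-2.72 ± 0.18, adjusted p = 7.21e-08). MDA-MB-231 cells had 21.6 (E7), 37.8 and 36.9 CPM with extract, against 146, 161 and 166 CPM in controls (-2.29 ± 0.17, adjusted p = 3.51e-07; -2.07 without E7). No extract library reached a control in either line. With the offset the log2 fold changes were -0.79 and -0.61, both still called.

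ITGA1 (chr5:52787916-52959209), a collagen receptor subunit, had the largest fall of all members in MDA-MB-231. It had 1.78 (E7), 2.59 and 3.19 CPM there with extract, against 40.2, 43.9 and 43.7 CPM in controls, which is -4.05 ± 0.20 (adjusted p = 1.15e-08), -3.89 without E7 and -2.21 with the offset. In HCC1937 it was low in both groups, with 1.09, 1.77 and 1.55 CPM with extract, against 3.27, 2.54 and 2.36 CPM in controls. The fall in HCC1937 (-0.88 ± 0.22, adjusted p = 0.00362) turned into a called rise with the offset (1.11, adjusted p = 0.000391). The effects differed by 3.17 ± 0.30 between the lines (adjusted p = 1.96e-05), or 3.32 with the offset and 3.04 without E7.

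ITGA2, the other collagen receptor subunit next to ITGA1 on the chromosome, had 40 (E7), 78.9 and 81.6 CPM in MDA-MB-231 with extract, against 419, 451 and 456 CPM in controls (-2.72 ± 0.21, adjusted p = 4.74e-07; -2.46 without E7 and -1.27 with the offset). In HCC1937 it had 125, 123 and 118 CPM with extract, against 229, 256 and 248 CPM in controls. There the called value of -1.0 ± 0.20 (adjusted p = 0.000809) turned with the offset (0.70, adjusted p = 0.000284).

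ITGA6, the laminin receptor subunit that pairs with ITGB4 or ITGB1, had 47 (E7), 111 and 109 CPM in MDA-MB-231 with extract, against 360, 385 and 384 CPM in controls (-2.07 ± 0.25, adjusted p = 1.51e-05; -1.76 without E7 and -1.33 with the offset). In HCC1937 it had 119, 115 and 117 CPM with extract, against 200, 214 and 212 CPM in controls. The call there (-0.83 ± 0.24, adjusted p = 0.00782) ended with the offset (0.24, adjusted p = 0.203). ITGB4, its hemidesmosome partner, rose in HCC1937 over the same libraries. ITGAX, a subunit best known from myeloid cells, had 3.91 (E7), 5.1 and 5.33 CPM in MDA-MB-231 with extract, against 17.2, 19.2 and 18.9 CPM in controls (-1.93 ± 0.21, adjusted p = 6.98e-06; -1.81 without E7).

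ITGA5, the fibronectin receptor subunit, had 200, 201 and 198 CPM in HCC1937 with extract, against 66.1, 66.9 and 67.7 CPM in controls. This was a rise of 1.58 ± 0.13 (adjusted p = 6.29e-07) with no overlap. In MDA-MB-231 the extract libraries had 276 (E7), 423 and 407 CPM, against 291, 306 and 304 CPM in controls, and E7 lay below all controls while E8 and E9 lay above them. The value there was 0.30 ± 0.13 (adjusted p = 0.0632), and without E7 it was 0.47 and passed (adjusted p = 2.14e-12). The lines differed by 1.28 ± 0.18 (adjusted p = 0.000349). ITGA3, the laminin receptor subunit, was the most abundant α transcript per kb in all 4 groups, at 74.1 ± 0.554% of the summed α level in HCC1937 with extract and 56.6 ± 1.75% in HCC1937 controls, and at 53.2 ± 3.51% in MDA-MB-231 with extract and 40.9 ± 1.02% in its controls. It had 1250, 1240 and 1290 CPM in HCC1937 with extract, against 708, 693 and 659 CPM in controls, a rise of 0.88 ± 0.18 (adjusted p = 0.00103). In MDA-MB-231 the value was -0.15 ± 0.18 (adjusted p = 0.48), and its sign rested on E7 and the offset: it was 0.09 without E7 (adjusted p = 0.0173) and -0.37 with the offset (adjusted p = 0.000208).

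Among the 11 tested laminin chains, in HCC1937 3 rose, LAMB3 and the barely detected LAMA1 among them, 5 fell, among them LAMA4, LAMA5, LAMB1 and LAMB2, and 3 did not pass. In MDA-MB-231 none of the 11 rose, 6 fell, among them LAMA3, LAMA4, LAMA5 and LAMB1, and 5 did not pass. Without E7, 1 rose there (LAMB3) and 7 fell, and with the offset 1 rose and 8 fell. Over all genes, 32.7% rose and 39.1% fell in HCC1937, and the laminin counts there were near these shares. In MDA-MB-231, 33% of all genes rose and 32.8% fell. These shares were 37.3% and 37.2% without E7, and 34.9% and 30.4% with the offset.

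LAMB3 (chr1:209614870-209652425), the β chain of the hemidesmosome laminin, had 920, 888 and 923 CPM in HCC1937 with extract, against 259, 258 and 257 CPM in controls. The rise was 1.82 ± 0.16 (adjusted p = 9.95e-07). In MDA-MB-231 it had 288 (E7), 485 and 482 CPM with extract, against 429, 437 and 426 CPM in controls. E7 lay below the controls and the other extract libraries above them, so the value of -0.04 ± 0.16 (adjusted p = 0.84) was 0.17 without E7, which passed (adjusted p = 2.72e-05), and -0.31 with the offset, which also passed (adjusted p = 0.000346). Its direction in MDA-MB-231 thus rested on these choices. The effects differed between lines by 1.86 ± 0.22 (adjusted p = 0.000102).

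LAMA3 (chr18:23689453-23955066), the α chain that pairs with LAMB3, did not follow it in HCC1937. It had 166, 170 and 171 CPM there with extract, against 181, 192 and 184 CPM in controls. The value of -0.14 ± 0.15 did not pass (adjusted p = 0.42), although every extract library was slightly below every control. MDA-MB-231 cells had 3.27 (E7), 6.14 and 5.37 CPM with extract, against 44.7, 54.9 and 49.4 CPM in controls, a value of -3.30 ± 0.17 (adjusted p = 1.87e-08), -3.09 without E7 and -3.10 with the offset. The lines differed by 3.17 ± 0.22 (adjusted p = 2.58e-06).

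LAMA5, the broadly expressed α chain of basement membranes, had 421, 419 and 436 CPM in HCC1937 with extract, against 1020, 1040 and 901 CPM in controls (-1.21 ± 0.34, adjusted p = 0.00745). In MDA-MB-231 the extract libraries had 51.2 (E7), 189 and 177 CPM, against 665, 738 and 723 CPM in controls (-2.35 ± 0.36, adjusted p = 0.000114; -1.94 without E7). Every extract library was below every control in both lines. LAMB1, the β chain of the widespread trimers, had 81.1, 78.2 and 78.8 CPM in HCC1937 with extract, against 179, 183 and 173 CPM in controls (-1.16 ± 0.19, adjusted p = 0.000159). It fell by 1.81 ± 0.19 in MDA-MB-231 (adjusted p = 6.17e-06; -1.56 without E7), with 51.8 (E7), 98.6 and 100 CPM with extract, against 286, 294 and 300 CPM in controls.

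Per kb of transcript length, LAMB3 held 84.9 ± 0.191% of the β chain level in HCC1937 with extract and 42.8 ± 0.864% in HCC1937 controls, and 67.1 ± 0.0599% in MDA-MB-231 with extract and 50.9 ± 0.637% in MDA-MB-231 controls. The summed α chain level, mostly LAMA5, was 63.7 ± 1.62 CPM per kb in HCC1937 with extract and 127 ± 6.7 CPM per kb in HCC1937 controls. It was 12.9 ± 6.84 CPM per kb in MDA-MB-231 with extract, where E7 gave the lowest value of 4.98, and 67.1 ± 3.73 CPM per kb in MDA-MB-231 controls.

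Of the focal adhesion genes, in each line 7 of the 13 rose, 3 fell and 3 did not pass. Their median was 0.57 in HCC1937 (0.42 with the offset) and 0.55 in MDA-MB-231 (0.33 with the offset). Over all genes, 32.7% rose and 39.1% fell in HCC1937, and 33% rose and 32.8% fell in MDA-MB-231 (37.3% and 37.2% without E7). BCAR1, ILK, PARVA, TLN1 and ZYX rose in both lines, FERMT2 and PTK2 fell in both, FERMT1 and PXN rose in HCC1937 without passing in MDA-MB-231, and SRC and TLN2 rose in MDA-MB-231 without passing in HCC1937. Without E7, 9 rose in MDA-MB-231, FERMT1 and PXN among them, and 4 fell, with a median of 0.59. PXN (paxillin) had 283 (E7), 664 and 654 CPM in MDA-MB-231 with extract, against 432, 447 and 438 CPM in controls, so E7 lay below the controls and the other extract libraries above them. Its value of 0.28 ± 0.24 (adjusted p = 0.314) was 0.59 without E7, which passed (adjusted p = 8.73e-15).

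ZYX (chr7:143381345-143391111), a LIM protein that gathers at adhesions under tension, had 318, 299 and 318 CPM in HCC1937 with extract, against 95.5, 93.9 and 93.8 CPM in controls (1.72 ± 0.08, adjusted p = 5.74e-09). In MDA-MB-231 it had 494 (E7), 458 and 429 CPM with extract, against 243, 223 and 222 CPM in controls (1.01 ± 0.08, adjusted p = 4.07e-07; 0.96 without E7). No library of one group reached the other. With the offset the rises were 1.08 and 0.43, both called.

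BCAR1 (p130Cas), a docking protein for SRC and PTK2, had 129, 127 and 122 CPM in HCC1937 with extract, against 54.6, 53.8 and 52.7 CPM in controls (1.23 ± 0.12, adjusted p = 2.74e-06). The MDA-MB-231 extract libraries had 93.4 (E7), 136 and 132 CPM, against 45.1, 44.4 and 41.2 CPM in controls (1.47 ± 0.12, adjusted p = 9.11e-07; 1.63 without E7). The rises differed by -0.24 ± 0.17 (adjusted p = 0.323), and without E7 by -0.38, which passed (adjusted p = 3.32e-05).

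ILK, a pseudokinase that binds β integrin tails together with PARVA, had 112, 116 and 103 CPM in HCC1937 with extract, against 49.5, 47 and 51.6 CPM in controls (1.16 ± 0.10, adjusted p = 1.1e-06). MDA-MB-231 cells had 374 (E7), 288 and 294 CPM with extract, against 157, 166 and 161 CPM in controls (0.98 ± 0.10, adjusted p = 5.89e-06; 0.85 without E7). With the offset these rises were 0.42 and 0.33, both called. The difference between lines was 0.18 ± 0.15 (adjusted p = 0.379), and passed without E7 (0.33, adjusted p = 9.59e-05). PARVA, by contrast, had larger rises with the offset (1.63 in HCC1937 and 1.52 in MDA-MB-231) than without it (0.57 ± 0.08 and 0.56 ± 0.08; 0.50 in MDA-MB-231 without E7). TLN1, the talin that opens integrins from inside, had 346, 338 and 343 CPM in HCC1937 with extract, against 161, 171 and 156 CPM in controls (1.08 ± 0.19, adjusted p = 0.000322). Its MDA-MB-231 extract libraries had 635 (E7), 1200 and 1210 CPM, against 633, 674 and 684 CPM in controls, so the groups overlapped at E7 (0.61 ± 0.19, adjusted p = 0.0137; 0.87 without E7).

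PTK2, the focal adhesion kinase, had 181, 189 and 174 CPM in HCC1937 with extract, against 365, 385 and 373 CPM in controls (-1.04 ± 0.17, adjusted p = 0.000138; -0.35 with the offset, still called). In MDA-MB-231 the extract libraries had 103 (E7), 177 and 181 CPM, against 256, 261 and 276 CPM in controls (-0.78 ± 0.17, adjusted p = 0.00144; -0.56 without E7). Neither line had overlapping groups. The effects differed by -0.27 ± 0.23 (adjusted p = 0.428), a value that was 0.03 with the offset and that passed at -0.47 without E7 (adjusted p = 2.61e-08). SRC, the kinase that acts with it, rose in MDA-MB-231 by 0.75 ± 0.15 (adjusted p = 0.00113; 0.93 without E7) and was at -0.23 ± 0.16 in HCC1937 (adjusted p = 0.215), where the offset gave a called value of -0.59 (adjusted p = 0.000135).

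CAV1, the coat protein of caveolae, had 176, 171 and 168 CPM in HCC1937 with extract, against 401, 408 and 427 CPM in controls, a value of -1.26 ± 0.09 (adjusted p = 2.19e-07). In MDA-MB-231 it had 154 (E7), 121 and 125 CPM with extract, against 152, 160 and 152 CPM in controls. E7 lay among those controls and the value was -0.22 ± 0.09 (adjusted p = 0.0588). Without E7 it was -0.33 and passed (adjusted p = 6.29e-08). The lines differed by -1.05 ± 0.13 (adjusted p = 0.000137).

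The kindlins parted in HCC1937. FERMT1, the epithelial kindlin, had 204, 212 and 207 CPM with extract, against 74.4, 78.2 and 79.9 CPM in controls (1.42 ± 0.15, adjusted p = 4.33e-06). FERMT2, the widely expressed one, had 29, 23.5 and 28.9 CPM with extract, against 65.6, 64.7 and 68.5 CPM in controls (-1.29 ± 0.09, adjusted p = 1.53e-07; -0.32 with the offset, still called). In MDA-MB-231 FERMT1 was at 0.12 ± 0.15 (adjusted p = 0.523), or 0.30 without E7, which passed (adjusted p = 0.00015). FERMT2 fell there (-0.70 ± 0.09, adjusted p = 3.2e-05; -0.65 without E7), a call that ended with the offset (-0.19, adjusted p = 0.0684).

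**Figure D3:**
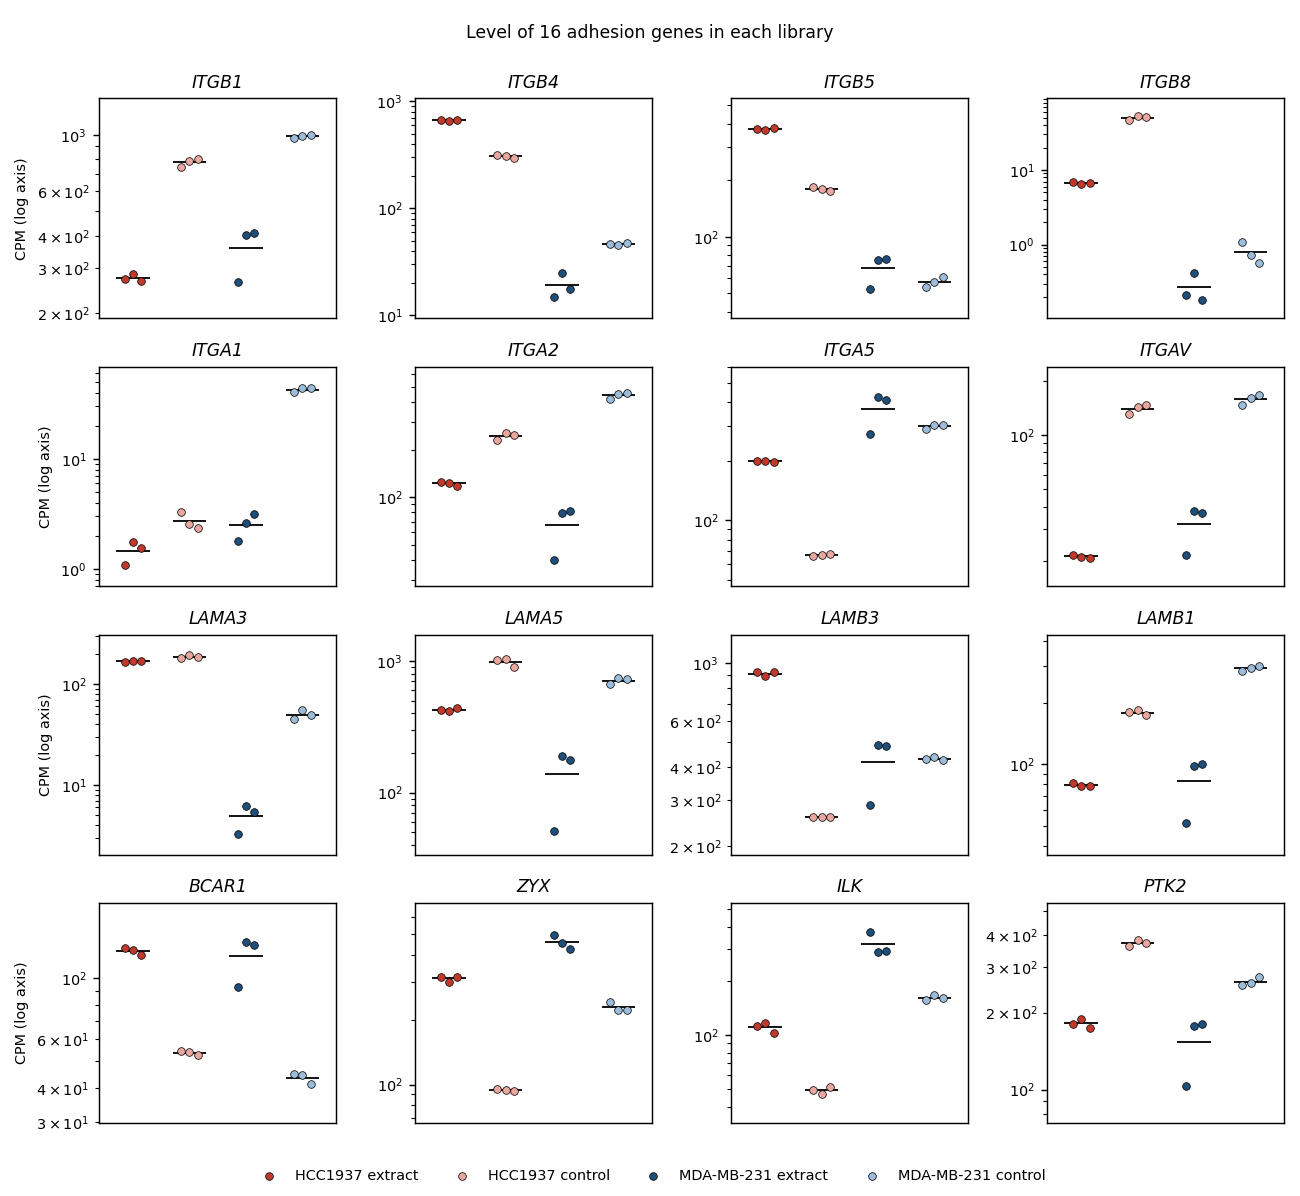
CPM (log y axis) of 16 members in each of the 12 libraries, with a bar at the mean of 3. ITGB4 is above its controls in HCC1937 with extract and below them in MDA-MB-231 with extract; the lowest MDA-MB-231 extract point of ITGB1, ITGA5, LAMA5, LAMB3 and PTK2 is E7.

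Set against each other, the 2 responses differed more often towards HCC1937 than over all genes. The difference of effects (HCC1937 minus MDA-MB-231) was called above 0 for 17 members, where 11.5% of all genes were, and below 0 for 6, where 20.6% were. Over either direction 32.1% of all genes were called. The 17 included 7 α subunits, 3 β subunits, 5 laminin chains and 2 focal adhesion genes. The median difference was 0.55 over members and -0.16 over all genes. Another scaling moved the split over all genes, to 14.4% above and 16.4% below 0 with DESeq2's size factors in edgeR, where 19 members lay above and 6 below, and to 19% and 20.3% with the offset, where 22 members lay above and 9 below. The scaling by size factors also moved the median of all genes in HCC1937, which was -0.06 with it. With the length and GC offset the called difference of FERMT2 ended. Without E7, 24 members were called above 0, where 24.7% of all genes were, and 13 below, where 33.3% were.

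Across both lines, 14 members fell in both (30.4% of those tested, beside 25.3% of all genes) and 5 rose in both (10.9%, beside 24.3%). The 3 that rose in HCC1937 and fell in MDA-MB-231 made up 6.52% of those tested, beside 1.58% of all genes. Another 8 rose in HCC1937 without passing in MDA-MB-231 (17.4%, beside 6.88%). None did the reverse of ITGB4 by rising in MDA-MB-231 and falling in HCC1937. Of all genes 2.31% did, so the members were near that share.

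**Figure D4:**
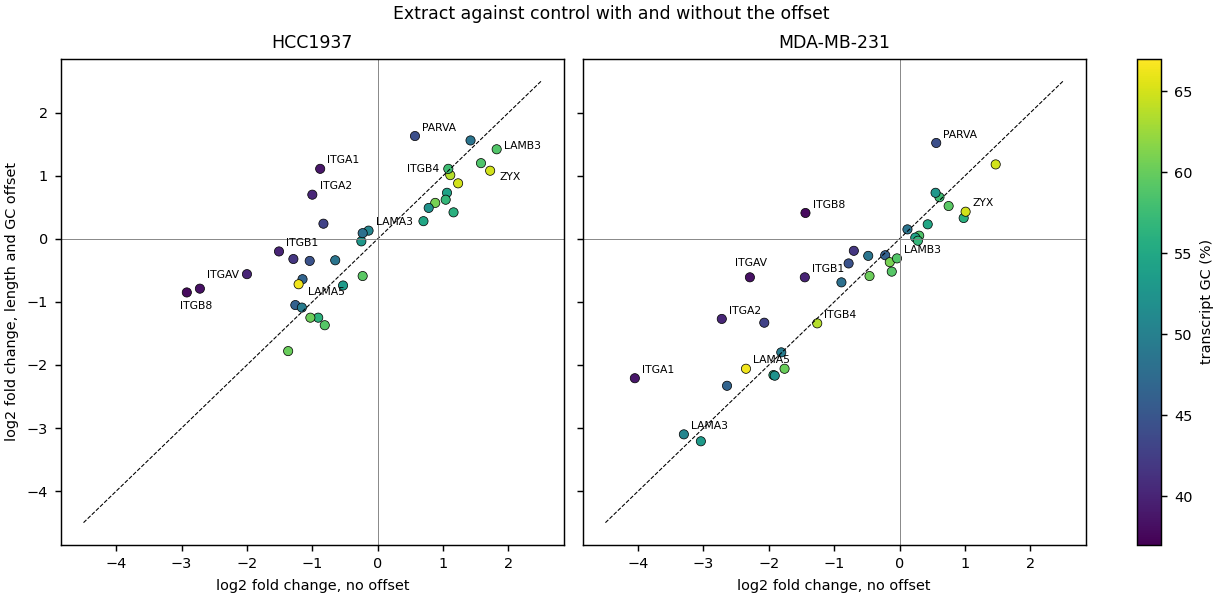
Log2 fold change of extract over control without (x axis) and with (y axis) the length and GC offset, for members drawn in the plot of fold changes, coloured by GC content, with HCC1937 left and MDA-MB-231 right and a dashed line of equality. Members of low GC content such as ITGAV, ITGB8, ITGA1 and ITGA2 lie well above the line, while LAMA3, LAMB3 and ITGB4 lie near it.

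The lines already differed without extract. In HCC1937 controls, 16 members were higher than in MDA-MB-231 controls, where 38.7% of all genes were, 24 were lower, where 36.7% were, and 6 did not pass; in either direction 75.3% of all genes were called. Of the 14 α subunits 10 were lower in HCC1937 and 1 was higher, while of the 8 β subunits 5 were higher and 3 lower. With the offset, 13 of the 16 higher and 23 of the 24 lower members kept their call. The calls of ITGA2B, ITGB1 and LAMA2 ended, that of BCAR1 turned from higher to lower, and 4 members gained a call.

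ITGB6 had 2909 reads over the HCC1937 controls and 1 over the MDA-MB-231 controls, a ratio of 2050 on equal library size with a counting interval of 367 to 80900. LAMC3 had 92 reads against 0 and was at least 21.6-fold higher in HCC1937, computed with 3 counts over the MDA-MB-231 group. LAMA4, a chain of vessel and muscle basement membranes, had 146, 154 and 153 CPM in HCC1937 controls, against 2.42, 1.94 and 1.93 CPM in MDA-MB-231 controls (6.17 ± 0.21, adjusted p = 2.79e-10). ITGB8 was higher by 5.99 ± 0.20 (adjusted p = 2.19e-10) and ITGB4 by 2.73 ± 0.15 (adjusted p = 1.51e-08; 1.78 with the offset), with the library values given above.

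Lower in HCC1937 controls were ITGB3 (-5.01 ± 0.23, adjusted p = 2.5e-09), ITGA1 (-3.97 ± 0.19, adjusted p = 4.69e-09), ITGAX (-3.50 ± 0.23, adjusted p = 5.55e-08) and ITGA5 (-2.17 ± 0.14, adjusted p = 3.96e-08). ITGA7, a laminin receptor subunit of muscle, had 0.73, 0.957 and 0.985 CPM in HCC1937 controls, against 16.2, 16.1 and 16.1 CPM in MDA-MB-231 controls (-4.16 ± 0.30, adjusted p = 1.34e-07). ILK was lower, at -1.71 ± 0.11 (adjusted p = 3.67e-08), CAV1 was higher by 1.41 ± 0.09 (adjusted p = 6.89e-08) and PTK2 was higher by 0.50 ± 0.17 (adjusted p = 0.0165), a call that ended without E1 (0.48, adjusted p = 0.0517). ITGB1 was at -0.34 ± 0.14 (adjusted p = 0.0449), which did not pass with any 1 control library left out (adjusted p from 0.0752 to 0.123) or with the offset (-0.16, adjusted p = 0.26).

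Other genes of the pathway moved in both directions. Of 49 tested partners of the adhesome, the protein network of focal adhesions, 21 rose and 19 fell in HCC1937 (median -0.07), and 22 rose and 14 fell in MDA-MB-231 (median 0.19; without E7, 27 rose and 17 fell). Of all genes, 32.7% rose and 39.1% fell in HCC1937, and 33% rose and 32.8% fell in MDA-MB-231, so the share of partners that fell was near that of all genes in HCC1937. CSRP1, a LIM protein that binds ZYX, rose in both lines (1.74 ± 0.09, adjusted p = 9.05e-09 in HCC1937; 1.04 ± 0.08, adjusted p = 6.58e-07 in MDA-MB-231), or by 0.98 and 0.38 with the offset. In HCC1937 the tensin TNS4 (2.08 ± 0.12, adjusted p = 3.39e-08) and the actin crosslinker ACTN1 (1.35 ± 0.10, adjusted p = 1.39e-07) had the next smallest p among the rises. In MDA-MB-231 these were the ZYX relative TRIP6 (1.65 ± 0.14, adjusted p = 1.12e-06; 0.91 with the offset) and the LIM protein TES (0.95 ± 0.09, adjusted p = 2.94e-06). Without E7 the MDA-MB-231 values were 0.95 for CSRP1, 1.43 for TRIP6 and 1.05 for TES.

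The same 3 partners had the smallest p among the falls of both lines. LPP, another ZYX relative, fell in both, with -2.69 ± 0.13 in HCC1937 (adjusted p = 8.09e-09) and -2.45 ± 0.13 in MDA-MB-231 (adjusted p = 2.12e-08), or -0.74 and -0.58 with the offset, both called. PTPN12, a phosphatase that acts on BCAR1, fell likewise, with -1.77 ± 0.08 (adjusted p = 6.44e-09) and -1.50 ± 0.08 (adjusted p = 2.68e-08), or -0.65 and -0.86 with the offset. ENAH, which extends actin filaments, was at -2.09 ± 0.14 (adjusted p = 1.04e-07) and -1.48 ± 0.14 (adjusted p = 2.17e-06). With the offset it was at -0.33 in HCC1937, still called, and turned to a called 0.15 in MDA-MB-231 (adjusted p = 0.028). Without E7 the MDA-MB-231 values were -2.33 for LPP, -1.51 for PTPN12 and -1.31 for ENAH.

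Of 16 tested partners of laminins and hemidesmosomes, 6 rose and 6 fell in HCC1937 (median -0.43), and 3 rose and 6 fell in MDA-MB-231 (median -0.19; 5 rose and 8 fell without E7, and 2 rose and 10 fell with the offset). In HCC1937 these counts were near the shares of all genes. The tetraspanins CD81 and CD151, which sit beside laminin-binding integrins, rose in both lines. CD81 was at 1.47 ± 0.11 in HCC1937 (adjusted p = 2.36e-07) and 1.09 ± 0.11 in MDA-MB-231 (adjusted p = 3.69e-06), or 0.56 and 0.28 with the offset. CD151 was at 1.1 ± 0.16 (adjusted p = 6.66e-05) and 0.81 ± 0.16 (adjusted p = 0.000827), and with the offset at 0.23 and at 0.00, which ended the call in MDA-MB-231 (adjusted p = 0.994). Without E7, CD81 was at 0.94 and CD151 at 0.54 in MDA-MB-231. COL17A1, the collagen of hemidesmosomes, rose in HCC1937 (0.67 ± 0.10, adjusted p = 7.01e-05) and was at 0.02 ± 0.11 in MDA-MB-231 (adjusted p = 0.899; 0.00 without E7). PLEC, which ties ITGB4 to keratin, rose in HCC1937 (1.25 ± 0.26, adjusted p = 0.00101; 1.96 with the offset) and in MDA-MB-231 (1.09 ± 0.26, adjusted p = 0.00287; 1.41 without E7).

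DST, the other keratin linker of hemidesmosomes, fell in both, with -3.13 ± 0.26 in HCC1937 (adjusted p = 5.58e-07) and -4.21 ± 0.27 in MDA-MB-231 (adjusted p = 1.02e-07), or -1.38 and -2.55 with the offset (-3.90 in MDA-MB-231 without E7). The tetraspanin CD82 fell in both (-1.22 ± 0.09, adjusted p = 2.59e-07, and -1.26 ± 0.09, adjusted p = 2.71e-07), or -1.96 and -1.87 with the offset (-1.16 in MDA-MB-231 without E7). NTN4, a laminin-related netrin, fell in HCC1937 (-1.81 ± 0.12, adjusted p = 7.46e-08) and in MDA-MB-231 (-0.65 ± 0.14, adjusted p = 0.00134; -0.67 without E7). COL7A1, the collagen of anchoring fibrils, also fell in both (-2.58 ± 0.26, adjusted p = 2.97e-06, and -2.27 ± 0.24, adjusted p = 6.65e-06; -2.01 in MDA-MB-231 without E7). Markers of cell state moved beside these genes, and their part in the results was not tested. In HCC1937 5 of 8 epithelial markers rose and 2 fell, with summed levels of 11200 to 11400 CPM with extract and 4370 to 4520 CPM in controls, and 3 of 4 tested mesenchymal markers fell and 1 rose, with summed levels of 63.5 to 72.9 CPM and 98.9 to 100 CPM. In MDA-MB-231 3 epithelial markers rose and 0 fell, with summed levels of 1500 to 2630 CPM with extract and 730 to 777 CPM in controls, and 2 of 4 mesenchymal markers fell, with summed levels of 3620 to 5950 CPM and 4180 to 4300 CPM.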

How the data were processed

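RNA of HCC1937 and MDA-MB-231 cells was sequenced in 12 libraries. Per the labels' protocols, poly-A RNA was pulled down with poly-T beads, while the library kit they name is a total RNA kit. Per the submitters' processing notes, the authors used FastQC 0.12.1, fastp 0.23.4, Salmon 1.10.3 on GRCh38, DESeq2 and R 4.4.1. Neither the annotation release nor the step from transcripts to genes is given in the sources used here. Values deposited by the authors are expected counts, unscaled estimates of the reads per gene. Of its values, 52.8% were not whole, and all were rounded. One row had no symbol and was left out. Groups came from the sample titles, since the cell line field of the labels counts upward within each line.

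In R 4.3.3, edgeR 4.0.16 kept 14133 genes (filterByExpr on 4 groups), scaled by TMM and fitted 1 quasi-likelihood model of all 12 libraries with 8 residual degrees of freedom. Adjusted p is Benjamini-Hochberg over all genes tested, and 0.05 the threshold. CPM used the same scaled library sizes. For a library, 3 counts correspond to 0.099 to 0.213 CPM, which covers counting error only. No 2 replicates agreed within sampling noise (chi-square per degree of freedom of at least 2.18). The length and GC offset was a smooth surface per library (mgcv 1.9.3) over the longest protein-coding transcript of GENCODE 29, known for all 51 members. Scripts were tested on simulated data. Values of some genes are not reported here. The members, partner lists and markers were chosen with earlier results of these data known. Values per library are printed for members past the threshold with an absolute log2 fold change of at least 1, no overlap and a mean of at least 5 CPM, up to 8 in each direction (5 for the difference and the control lines), and for ITGB1, ITGB4, PTK2, ILK and CAV1. ITGA3, ITGAE, ITGB5, LAMA1, PARVA, PXN, SRC and TLN1 are described outside this rule, chosen after their values were seen. Of each partner list, up to 3 genes per direction and line with the smallest p are named. Alternatives were DESeq2 1.42.0, its size factors in edgeR, no filter, a mean of at least 5 CPM, only the groups compared, the offset, and leaving out each library of the groups compared.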

Additional observations from a re-analysis of the deposited data

Results flagged for a closer look

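The extract effect differed between the lines, by the test of the difference itself (HCC1937 minus MDA-MB-231, edgeR, log2), for members chosen by size for that comparison. It was higher in HCC1937 by 3.17 for ITGA1 and by 3.17 for LAMA3. For ITGB3 the difference was 2.69 and for ITGB4 2.37, and both rose in HCC1937 and fell in MDA-MB-231. It was lower in HCC1937, at -1.47 for ITGB8 and at -1.05 for CAV1. The concentration was 66 µg/mL in HCC1937 and 140 µg/mL in MDA-MB-231, in different media, and cannot be told apart from the line. With the offset for length and GC content all 6 differences were still called, at 3.32, 3.23, 2.65, 2.34, -1.26 and -0.78 in the same order. Without E7 they were 3.04, 2.98, 2.49, 2.23, -1.57 and -0.91, all called. Without E8 the difference of ITGB8 was -0.89 and no longer called (adjusted p = 0.301).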

How the results depend on the processing

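Members called were counted for each direction, comparison and alternative. Of these counts, 105 stayed within 1.5 times of those reported and 5 moved further. These came with E7 or E8 left out: 13 members rose in MDA-MB-231 without E7 (37.3% of all genes did), beside 7, and the difference between lines was called below 0 for 13 without E7 (33.3% of all genes) and for 3 without E8 (19.1%), beside 6. With the offset and E7 left out together, an alternative chosen after seeing the data, the difference was called above 0 for 26 members (27.3% of all genes), beside 17, and below 0 for 10 (27.2%). Leaving out in turn each library of the groups compared, 6 to 13 members rose and 20 to 23 fell in MDA-MB-231. In HCC1937 15 to 16 rose and 20 to 22 fell. For the difference 14 to 24 were called above 0 and 3 to 13 below, and for the control lines 12 to 14 and 22 to 23. HCC1937 was thus not refitted without E7 alone. With only the HCC1937 groups fitted, 43 members were tested. Of these, 16 rose, where 42.5% of all genes did, and 24 fell, where 44.2% did. For the 56 pairs of a member and a comparison chosen by the rule for named members, 720 values kept direction and call, 9 gained a call, 11 lost one and 7 turned. Outside these pairs, the offset turned the called falls of ITGA1 and ITGA2 in HCC1937 to called rises (1.11 and 0.70) and ended the calls of ITGA6 and ITGAE in HCC1937 and of FERMT2 and ITGB8 in MDA-MB-231. Between control lines it turned the call of BCAR1 and ended those of ITGA2B and LAMA2, and for the difference it ended that of FERMT2. The uncalled difference of ITGB1 turned to 0.05 with DESeq2's size factors, 0.05 with DESeq2, 0.40 with the offset, 0.04 without E8, 0.05 without E9 and 0.23 with the offset and E7 left out, and that of PTK2 to 0.03 with the offset. Without E7 it was -0.22 for ITGB1, and passed. The cause was not tested. CAV1 in MDA-MB-231 passed under 5 alternatives (DESeq2, a mean of at least 5 CPM, the offset, without E7 and both together; -0.38 to -0.24). ITGB1 between control lines lost its call with no filter as well (adjusted p = 0.0563). A fit of only the groups compared could not be made for the difference, which needs all 4. No paired analysis was possible because the groups share no replicate numbers. With 3 libraries a group, members below about 1 CPM, such as ITGA9, ITGA11, ITGA2B and LAMA1, have wide errors.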

Other observations

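Several members of low level were called although their reads were few. LAMA1, a laminin chain of early basement membranes, had 1.05, 0.563 and 0.792 CPM in HCC1937 with extract, against 0.115, 0.033 and 0.0352 CPM in HCC1937 controls (3.65 ± 0.71, edgeR adjusted p = 0.000617). ITGA9, a tenascin receptor subunit, had 0 reads over HCC1937 with extract and 13 over HCC1937 controls, at least 3.89-fold lower when computed with 3 counts over the group. ITGAE, known from intraepithelial lymphocytes, had 59.8 CPM in E7, against 28.9 in E8 and 27.2 in E9, and 28.3, 29.1 and 27.7 CPM in MDA-MB-231 controls, so its value of 0.43 ± 0.24 in MDA-MB-231 (adjusted p = 0.132) was -0.01 without E7.

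The balance of α and β transcripts also shifted. Summed per kb, α subunits reached 348 ± 4.79 CPM per kb in HCC1937 with extract and 248 ± 3.59 in HCC1937 controls, while β subunits were at 275 ± 0.952 and 315 ± 5.63 (SD, n = 3 each). In MDA-MB-231 the α sum was 270 ± 69.9 with extract and 395 ± 8.57 in controls, and the β sum 120 ± 26.4 and 297 ± 5.99. Its extract libraries ranged from 189 to 314 for the α sum and from 89.9 to 136 for the β sum, with E7 the lowest in both. These sums carry no offset for length and GC content, and how far they depend on it was not tested.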
